A study of Mus musculus with 13 samples.

Results

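Lymphoid priming genes are transcripts of the lymphoid programme that are already present in part of the stem and progenitor compartment, before cells commit to making B, T or natural killer cells. Flt3 and Il7r encode cytokine receptors of multipotent and lymphoid progenitors, Notch1 encodes the receptor that directs T cell fate, Ikzf1, Bcl11a and Satb1 encode nuclear regulators needed for lymphoid development, Dntt encodes the polymerase that adds untemplated bases at antigen receptor joints, Blnk encodes the adaptor that links the pre-B cell receptor to its signalling enzymes, and Cd27 encodes a surface receptor that appears on multipotent progenitors and stays on lymphocytes. In mouse bone marrow, haematopoietic stem cells (HSCs) with a platelet bias give little lymphoid output, and progenitors that gain surface FLT3 lose long-term repopulating ability. These 9 genes were taken by name from a table of 24015 genes, and all 9 were found in it.

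The study transplanted single HSCs that expressed Vwf, the von Willebrand factor gene, and followed their reconstitution of the recipients over 16 weeks. Reconstitution patterns gave the groups: PLT-HSC from P-restricted recipients (3 libraries), PEM-HSC from PEM-restricted recipients (6 libraries) and MUL-HSC from recipients with multilineage reconstitution (4 libraries). In the nomenclature of such transplantations P, E and M stand for platelets, erythroid and myeloid cells, so lymphoid output separates MUL-HSC from the others. All 13 libraries were made from 100 donor cells of strain C57BL/6, sorted from recipient marrow as lineage-negative, Sca-1+ and Kit+ (LSK), Flt3-, CD150+, CD48-, CD45.2+ and Gata1-. The gate against surface FLT3 and CD48 was the same in every group and bears on the transcripts of those genes. No label gives the recipient of a library, so libraries of a group may share a recipient, and the p-values below measure the spread between libraries, which may be technical in part. The labels give no age.

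Libraries held 29017378 to 32437607 gene counts for PLT-HSC, 22913695 to 28013676 for PEM-HSC and 16371921 to 41367057 for MUL-HSC. Levels are given as CPM, a gene's count scaled to the library's total of gene counts, and a floor of 3 counts stood at 0.0725 to 0.183 CPM. HSC marker transcripts were present in all libraries, with summed levels of 15 markers of 3755 to 4786 CPM in PLT-HSC, 3248 to 3794 CPM across PEM-HSC and 2268 to 3292 CPM in MUL-HSC. MUL-HSC replicates 1 and 2 had the lowest of these sums, 2268 and 2483 CPM. In bulk libraries, fewer cells with a transcript and less of it per cell cannot be told apart.

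Of the 9 genes, Ikzf1, Bcl11a, Cd27 and Notch1 had counts in all 13 libraries, Flt3 and Blnk in 8, Satb1 in 1, and Il7r and Dntt in 0. Per kilobase of exon, Cd27 was the most abundant, at a mean of 67.7 CPM per kb over 13 libraries, with a range of 15.8 to 117 CPM per kb. Ikzf1 and Bcl11a followed at 14.0 and 10.9 CPM per kb, and their ranges, 3.78 to 19.9 and 7.02 to 16.3 CPM per kb, overlapped. Blnk, Flt3 and Notch1 stood at 0.819, 0.818 and 0.584 CPM per kb with overlapping ranges. Satb1 stood at 0.0108 CPM per kb.

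**Figure D1:**
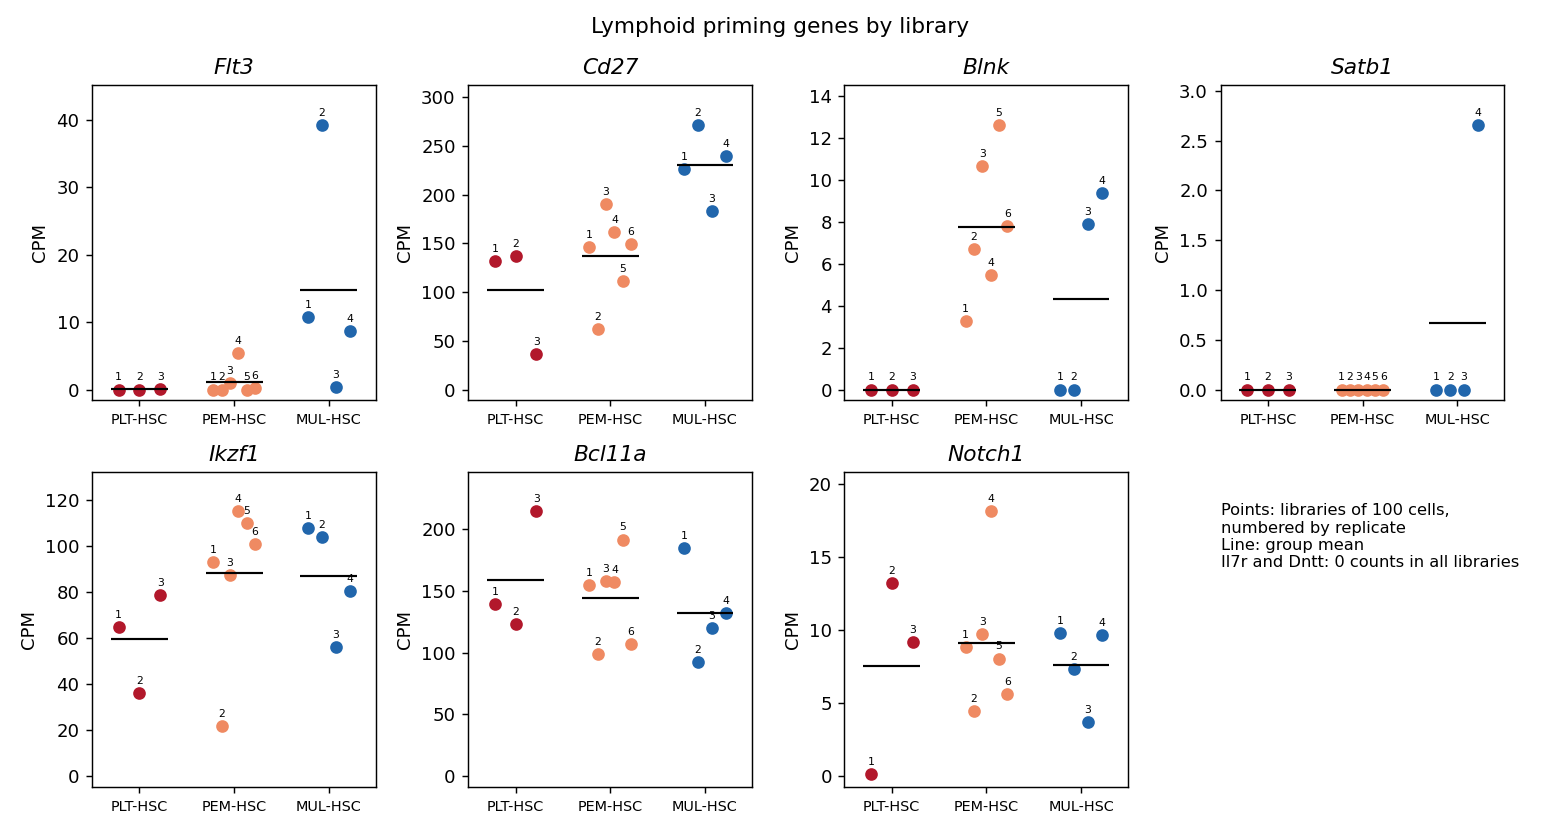
CPM of the 7 genes with counts, 1 panel a gene and 1 point a library, numbered by replicate, with PLT-HSC, PEM-HSC and MUL-HSC from left to right and a line at each group's mean. Flt3 and Cd27 have every PLT-HSC point below every MUL-HSC point, Blnk is at 0 in all 3 PLT-HSC libraries and above 0 in all 6 PEM-HSC libraries, and Ikzf1, Bcl11a and Notch1 overlap between all groups.

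The sequences upstream of 5 of these genes are shown, because 3 of them (Flt3, Blnk and Cd27) had groups whose levels did not overlap and 2 (Il7r and Dntt) had no count. Each is the 250 bases before the transcription start in RefSeq, build GRCm38.p6, written 5′ to 3′ on the gene's strand. Bases after the start were found in a GENCODE transcript of the gene for Flt3, Blnk, Cd27 and Dntt. They were not found for Il7r, nor for Bcl11a and a window of Ikzf1, which are not printed, so those starts are less certain. They lie at chr5:147400490-147400739 (minus strand) for Flt3, chr19:40994222-40994471 (minus) for Blnk, chr6:125237028-125237277 (minus) for Cd27, chr15:9529877-9530126 (minus) for Il7r and chr19:41029025-41029274 (plus) for Dntt. Capitals mark, on either strand, GGGAA (a core bound by Ikaros), AGGAAG (ETS factors such as PU.1), CAGGTG (an E-box of E proteins), TGTGGT (RUNX) and TATAAA (the TATA box).
Flt3: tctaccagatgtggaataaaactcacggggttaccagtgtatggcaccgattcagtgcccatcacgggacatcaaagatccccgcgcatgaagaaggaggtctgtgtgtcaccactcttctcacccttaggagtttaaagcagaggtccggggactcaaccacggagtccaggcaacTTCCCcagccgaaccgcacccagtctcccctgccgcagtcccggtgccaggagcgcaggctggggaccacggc
Blnk: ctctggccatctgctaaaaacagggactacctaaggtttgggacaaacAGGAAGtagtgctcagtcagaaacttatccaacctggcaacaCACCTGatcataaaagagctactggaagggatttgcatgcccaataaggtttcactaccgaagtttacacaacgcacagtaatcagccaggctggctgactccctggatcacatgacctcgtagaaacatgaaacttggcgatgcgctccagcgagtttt
Cd27: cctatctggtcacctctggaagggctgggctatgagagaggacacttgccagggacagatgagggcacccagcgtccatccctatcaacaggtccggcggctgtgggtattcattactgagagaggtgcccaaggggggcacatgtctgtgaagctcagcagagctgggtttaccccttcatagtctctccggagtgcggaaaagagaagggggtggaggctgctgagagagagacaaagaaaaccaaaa
Il7r: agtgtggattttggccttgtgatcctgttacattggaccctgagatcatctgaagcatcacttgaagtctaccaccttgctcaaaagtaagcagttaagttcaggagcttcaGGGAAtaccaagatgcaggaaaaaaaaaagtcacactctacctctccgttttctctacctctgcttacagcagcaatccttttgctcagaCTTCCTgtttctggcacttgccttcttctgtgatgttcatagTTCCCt
Dntt: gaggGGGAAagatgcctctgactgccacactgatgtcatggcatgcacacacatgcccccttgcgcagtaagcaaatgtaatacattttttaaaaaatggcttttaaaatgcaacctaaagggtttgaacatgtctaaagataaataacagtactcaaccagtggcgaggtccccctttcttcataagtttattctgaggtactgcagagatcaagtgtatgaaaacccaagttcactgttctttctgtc
GGGAA was found once in Flt3 and in Dntt and 2 times in Il7r, against 56.2% of all 32851 upstream windows of this length. AGGAAG occurred in Blnk and Il7r, against 29.5% of windows, and CAGGTG occurred in Blnk alone of these 5, against 17.2%. Neither TGTGGT, present in 14.0% of windows, nor TATAAA, present in 12.4%, was found in any of the 5, and Cd27 had none of the 5 motifs. TGGGAA, the core bound by RBPJ, the DNA-binding partner of Notch, contains GGGAA and was found in 21.6% of windows but in none of these 5. The windows of Il7r and Dntt held 44.0% and 41.6% G and C with a CpG ratio, observed over expected, of 0.08 and 0.19. Those of Flt3, Blnk and Cd27 held 59.2%, 47.6% and 56.0% with ratios of 0.6, 0.43 and 0.26, against a median of 52.4% over all windows. Among the genes not printed, Bcl11a held 62.0% (ratio 0.73) and Notch1 66.0% (0.59). The 2 windows of Ikzf1 held 82.0% and 47.6% (1.05 and 0.07), and the 5 windows of Satb1 spanned 50.8% to 80.8% (0.15 to 1.05). Neither measure ordered the genes by level, since Cd27, the most abundant, had a low ratio and Satb1 a window with a high one.

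Flt3, the tyrosine kinase receptor whose protein was gated out, was highest in MUL-HSC. It stood at 0, 0 and 0.0308 CPM in PLT-HSC, the last being 1 count. In PEM-HSC it ran from 0 to 5.34 CPM with a median of 0.132 CPM, and 3 of 6 libraries were at 0. In MUL-HSC it stood at 10.7, 39.2, 0.428 and 8.73 CPM, 237, 1017, 7 and 361 counts. Every PLT-HSC library lay below every MUL-HSC library, while the highest PEM-HSC libraries, replicates 4 and 3 at 5.34 and 0.953 CPM, lay above MUL-HSC replicate 3. By pooled counts, the ratio of PLT-HSC to MUL-HSC was 0.000717 (exact 95% interval 1.82e-05 to 0.004, counting error only, from 1 and 1622 counts). The edgeR log2 fold change was -10.01 (SE 3.22, adjusted p = 0.491) in PLT-HSC against MUL-HSC and -3.83 (SE 1.80, adjusted p = 0.838) in PEM-HSC against MUL-HSC, so neither difference passed. The second ran from -5.96 (without PEM-HSC replicate 4) to -2.63 (without MUL-HSC replicate 2) when 1 library was left out, and 1 count in a group makes the PLT-HSC value depend on the prior count.

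Cd27, the receptor of the tumour necrosis factor family bound by CD70, had the same order of groups at a far higher level. It stood at 132, 137 and 36.7 CPM in PLT-HSC. It ran from 61.9 to 190 CPM with a median of 148 CPM across PEM-HSC. MUL-HSC libraries had 227, 272, 184 and 239 CPM. All PLT-HSC libraries lay below all MUL-HSC libraries, and of PEM-HSC replicate 3 alone lay above the lowest MUL-HSC library. The means were 102 ± 56.4 CPM in PLT-HSC (SD, n = 3), 137 ± 44.6 CPM across PEM-HSC (n = 6) and 230 ± 36.6 CPM in MUL-HSC (n = 4). The log2 fold change was -1.14 (SE 0.42, edgeR adjusted p = 0.63) in PLT-HSC and -0.78 (SE 0.34, adjusted p = 0.805) in PEM-HSC, each against MUL-HSC, and neither passed. Between PLT-HSC and PEM-HSC it was -0.36 (SE 0.38, adjusted p = 1). Cd27 shares 129 exon bases with Mir8113 on the same strand, so reads there cannot be told apart.

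Blnk, the adaptor between SYK and its targets in pre-B cells, did not overlap between the restricted groups. It stood at 0 in all 3 PLT-HSC libraries. In PEM-HSC it had counts in all 6 libraries, from 3.28 to 12.6 CPM with a median of 7.24 CPM. In MUL-HSC it was at 0, 0, 7.88 and 9.36 CPM, so that group held both absence and the PEM-HSC range. Against the floor of 3 counts over the PLT-HSC group, the mean was at least 235-fold lower in PLT-HSC than in PEM-HSC and at least 131-fold lower than in MUL-HSC, by the counting of reads alone. The edgeR test called neither difference (adjusted p = 1 and 0.451, unadjusted p = 0.00285 and 0.00435). For PEM-HSC against MUL-HSC the log2 fold change was 0.88 (SE 1.62, adjusted p = 0.999), which was -0.12 without MUL-HSC replicates 1 and 2 and 3.94 with limma-voom.

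Ikzf1, which encodes the zinc finger factor Ikaros, stood at 64.6, 36.1 and 78.5 CPM in PLT-HSC. It ran from 21.8 to 115 CPM across PEM-HSC with a median of 96.9 CPM, and stood at 108, 104, 55.9 and 80.5 CPM in MUL-HSC. All groups overlapped, with log2 fold changes of -0.59 (SE 0.44, edgeR adjusted p = 0.919) in PLT-HSC and -0.02 (SE 0.36, adjusted p = 0.999) in PEM-HSC against MUL-HSC. Bcl11a, a zinc finger repressor required for B cell development, was the steadiest member, with a coefficient of variation of 0.258 over 13 libraries. It stood at 139, 123 and 214 CPM in PLT-HSC, ran from 99.0 to 192 CPM across PEM-HSC with a median of 156 CPM, and stood at 185, 92.5, 120 and 132 CPM in MUL-HSC. Its log2 fold changes were 0.23 (SE 0.28) and 0.10 (SE 0.24) in PLT-HSC and PEM-HSC against MUL-HSC, with an edgeR adjusted p of 0.999 for each. Bcl11a shares 316 exon bases with the antisense gene 4930538E20Rik, whose reads cannot be told apart where strand was not used.

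Notch1, the receptor cleaved on binding Delta or Jagged ligands, was low in all groups and lowest in a PLT-HSC library. It stood at 0.138, 13.2 and 9.22 CPM in PLT-HSC, where replicate 1 held 4 counts. In PEM-HSC it ran from 4.45 to 18.1 CPM with a median of 8.46 CPM, and in MUL-HSC it stood at 9.82, 7.33, 3.73 and 9.65 CPM. The log2 fold changes were -0.0031 (SE 1.13, edgeR adjusted p = 1) in PLT-HSC and 0.23 (SE 0.96, adjusted p = 0.999) in PEM-HSC against MUL-HSC, and the first of these was 0.56 without PLT-HSC replicate 1. Notch1 shares 1068 and 414 exon bases with the antisense transcripts 0610009E02Rik and Gm13568, with the same limit on strand.

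Satb1, a chromatin organiser of lymphoid progenitors and T cells, had 110 counts in MUL-HSC replicate 4, 2.66 CPM, and 0 in the other 12 libraries. It did not pass the filter on low counts and is not among the 6 tested genes. With no filter it was tested and not called by edgeR (adjusted p = 0.631 for PLT-HSC, 0.567 for PEM-HSC and 0.441 for the restricted groups, each against MUL-HSC, with unadjusted p = 0.072, 0.0203 and 0.0135). Satb1 shares 156 exon bases with Gm36931 on the same strand and 128 with Gm6934 on the other. Il7r, the receptor chain for interleukin 7 that defines common lymphoid progenitors, and Dntt, terminal transferase, had 0 counts in all 13 libraries. At these depths a count of 0 allows up to 0.0925 to 0.103 CPM in a PLT-HSC library, 0.107 to 0.131 CPM in a PEM-HSC library and 0.0725 to 0.183 CPM in a MUL-HSC library, by counting error only.

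**Figure D2:**
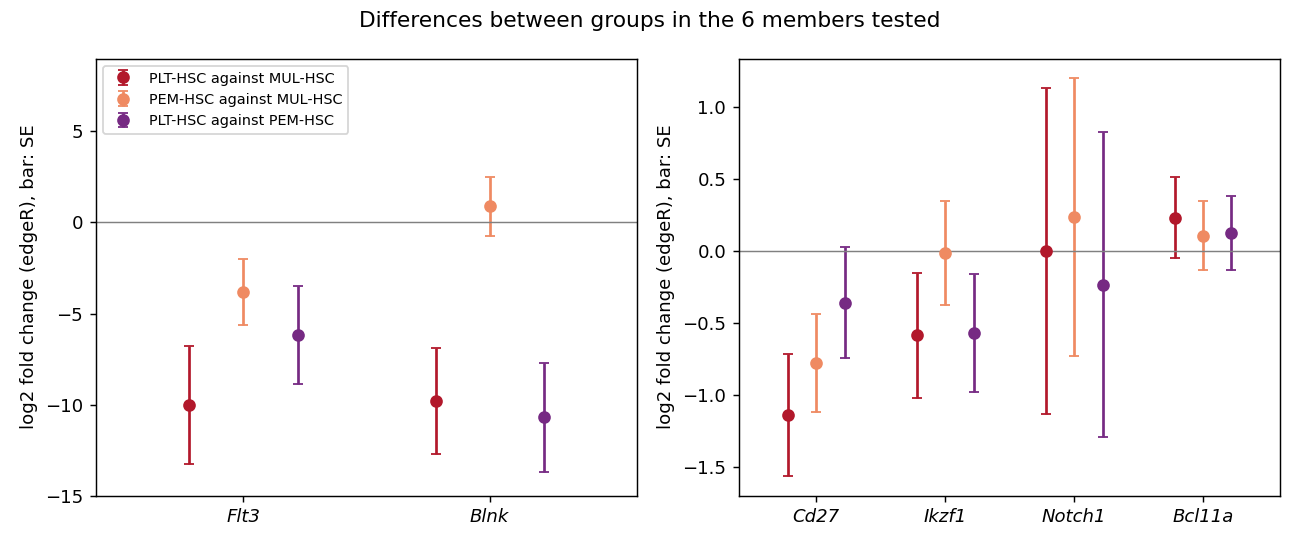
Log2 fold changes of the 6 tested genes from the edgeR fit, points with bars of 1 SE, for PLT-HSC against MUL-HSC, PEM-HSC against MUL-HSC and PLT-HSC against PEM-HSC. The SE was derived from the F statistic of each test. Flt3 and Blnk, on a wider axis, reach -10.01 and -10.70 where a group is at 0 or at 1 count, and these 2 depend on the prior count; the other 4 genes lie between -1.14 and 0.23.

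None of the 6 tested genes passed an adjusted p of 0.05 in edgeR's quasi-likelihood test in any comparison. In PLT-HSC against MUL-HSC 0 of 6 were called, against 0.0479% of all 12536 tested genes. In PEM-HSC against MUL-HSC 0 of 6 were called, against 0.00798%. For the mean of both restricted groups against MUL-HSC 0 of 6 were called, against 0.0718%, and for PLT-HSC against PEM-HSC 0 of 6, against 0%. At an unadjusted p under 0.05 the counts were 3 (Flt3, Blnk and Cd27), 2 (Flt3 and Cd27), 3 (Flt3, Blnk and Cd27) and 2 (Flt3 and Blnk) in the same order, all with negative fold changes, where 3.26%, 2.09%, 3.22% and 2.15% of all genes had such a p with a negative fold change. DESeq2 called Flt3 (adjusted p = 0.000984) and Blnk (adjusted p = 0.000779) in PLT-HSC against MUL-HSC, Flt3 (0.00378) in the restricted groups against MUL-HSC and Blnk (6.05e-05) in PLT-HSC against PEM-HSC, while limma-voom called none. Over all 12536 tested genes DESeq2 called 262, 312 and 114 in these comparisons, in that order. CPM did not overlap between PLT-HSC and MUL-HSC for Flt3 and Cd27, both lower in PLT-HSC, against 3.04% of all tested genes, nor between PLT-HSC and PEM-HSC for Blnk, lower in PLT-HSC, against 1.06%. No member was lower without overlap in PEM-HSC against MUL-HSC, where 0.63% of tested genes were, or in the restricted groups against MUL-HSC, where 0.247% were. Flt3 reached the filter chiefly through MUL-HSC and Blnk through PEM-HSC, so these counts describe the genes and do not support a difference. The median log2 fold change of the 6 was -0.865, 0.045, -0.632 and -0.467 in the 4 comparisons, against 0.039, 0.009, 0.009 and 0.017 over all tested genes. These medians include Flt3 and Blnk, so they too describe the genes and do not support a difference. The first 3 comparisons share the MUL-HSC libraries, and the first and last share those of PLT-HSC.

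Averaging both restricted groups gave log2 fold changes of -6.92 for Flt3 (SE 1.96, edgeR adjusted p = 0.311), -4.47 for Blnk (SE 1.58, adjusted p = 0.541) and -0.96 for Cd27 (SE 0.32, adjusted p = 0.499) against MUL-HSC. For Blnk this average joins a group at 0 with one whose mean, 7.76 CPM, was above the 4.31 CPM of MUL-HSC, and limma-voom gave -0.41 (adjusted p = 0.97). Flt3 was -5.15 and Cd27 -0.79 without MUL-HSC replicates 1 and 2.

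Flt3 and Cd27 tended to be high in the same libraries (Spearman rho 0.865, Pearson r 0.65 of log2(CPM + 1), 13 libraries), which includes the difference between groups. The 7 libraries highest in Flt3 were the 7 highest in Cd27: MUL-HSC replicates 1 to 4 and PEM-HSC replicates 3, 4 and 6. Below these the match ended, since PLT-HSC replicate 3, next in Flt3 with 0.0308 CPM, had the lowest Cd27, 36.7 CPM. Blnk did not follow Flt3 and Cd27. MUL-HSC replicates 1 and 2, first among all libraries in Flt3, had no Blnk count, whereas MUL-HSC replicate 4 had 8.73 CPM of Flt3 and 9.36 CPM of Blnk. Cd34, which encodes a sialomucin that marks multipotent progenitors and is low on the most primitive mouse HSCs, stood at 41.7, 23.2 and 66.4 CPM in PLT-HSC. It ran from 21.7 to 108 CPM across PEM-HSC with a median of 33.2 CPM, and stood at 555, 449, 90.9 and 380 CPM in MUL-HSC. It fell in the restricted groups against MUL-HSC (log2 fold change -2.99, SE 0.47, edgeR adjusted p = 0.0262). The adjusted p was 0.161, 0.093 and 0.05 when MUL-HSC replicate 1, 2 or 4 was left out, and 0.087 and 0.0965 when PLT-HSC replicate 1 or 2 was, which ended the call. With MUL-HSC replicates 1 and 2 left out together it was 0.583, at a log2 fold change of -2.27. Of the 7 libraries highest in Flt3, 6 were among the 7 highest in Cd34. The MUL-HSC library with 0.428 CPM of Flt3, replicate 3, had the lowest Cd34 of its group.

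**Figure D3:**
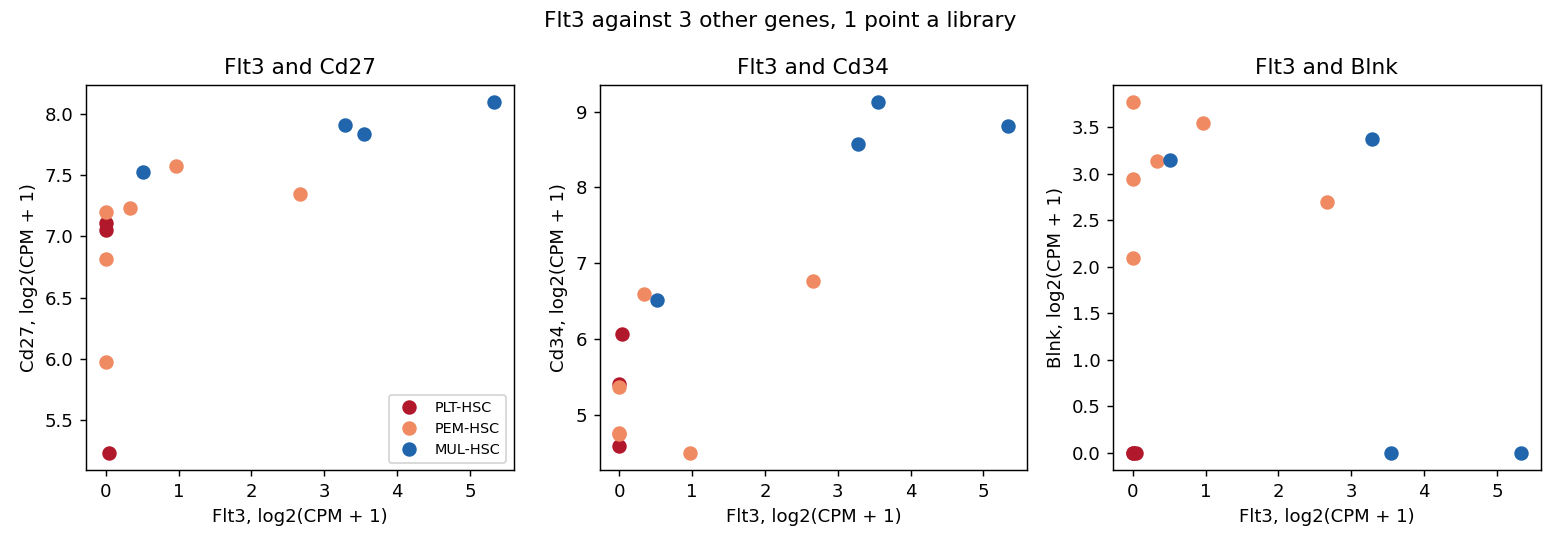
Flt3 on the x axis against Cd27, Cd34 and Blnk on the y axes, all as log2(CPM + 1), 1 point a library, coloured PLT-HSC, PEM-HSC and MUL-HSC. MUL-HSC points lie to the upper right for Cd27 and Cd34 with replicate 3 to their left, and for Blnk the 2 libraries highest in Flt3 lie at 0.

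Multipotent progenitor markers were read beside Flt3 and Cd27. Of 17 in the table all had counts and 11 were tested, with 1 called in the restricted groups against MUL-HSC (Cd34). Fold changes there were positive in 4 and negative in 7, with a median on the log2 scale of -1.463. The 4 were Cd53, Plac8, Lsp1 and Gpr171, at log2 fold changes of 0.95, 0.87, 0.24 and 0.13, none called. Their summed level was 703 to 1778 CPM in PLT-HSC, 1220 to 1598 CPM across PEM-HSC and 1353 to 2000 CPM in MUL-HSC. Cd48, a surface protein gated out in the sort, stood at 10.99, 6.47 and 0 CPM in PLT-HSC, at 0 in 5 of 6 PEM-HSC libraries and 15.9 CPM in the other. MUL-HSC libraries held 59.0, 22.8, 6.84 and 10.6 CPM of it. The part of such progenitors in the Flt3 and Cd27 levels was not tested.

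By the similarity of log2(CPM + 1) over 13 libraries, the nearest of 11686 other tested genes with a gene name were Hmgb3 (Pearson r 0.887) and Cd52 (0.883) for Flt3. Hmgb3 averaged 108 CPM in PLT-HSC, 110 CPM across PEM-HSC and 152 CPM in MUL-HSC. Cd52, a glycoprotein of lymphocytes that is also on the list of multipotent progenitor markers, averaged 0.723, 1.36 and 6.79 CPM in that order. It was at 0 in 5 of 13 libraries. For Cd27 the nearest were Lat2 (0.902), an adaptor of lymphoid and myeloid cells, and Rwdd2a (0.882). Lat2 averaged 3.70 CPM in PLT-HSC, 16.8 CPM across PEM-HSC and 67.2 CPM in MUL-HSC, and Rwdd2a 13.5, 14.9 and 35.3 CPM. For Blnk the nearest were Ddx49 (0.922) and Rab10os (0.914), for Ikzf1 Ect2 (0.882) and Lancl1 (0.868), for Notch1 Psph (0.877) and Cks2 (0.867), and for Bcl11a Thrap3 (0.875) and Pank3 (0.869). These values were picked as the highest of many and describe these libraries, which share groups and protocol.

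Other genes of the lymphoid programme were read from lists. Among 28 transcription factors of lymphoid and B-lineage cells, 25 had counts and 20 were tested. Mef2c, which drives lymphoid against myeloid choice in multipotent progenitors and also acts in megakaryocytes, was the 1 factor called in PLT-HSC against MUL-HSC, and none was called in the other comparisons. Mef2c stood at 435, 341 and 368 CPM in PLT-HSC, ran from 171 to 312 CPM across PEM-HSC with a median of 253 CPM, and stood at 148, 188, 128 and 136 CPM in MUL-HSC. It rose in PLT-HSC against MUL-HSC (log2 fold change 1.33, SE 0.23, adjusted p = 0.0487 by edgeR), the opposite direction to Flt3 and Cd27. The call ended in 10 of 13 settings that left out 1 library (any MUL-HSC library, replicates 1, 2, 3 and 6 of PEM-HSC, and replicates 1 and 2 of PLT-HSC), and over all 13 the log2 fold change ran from 1.204 to 1.48 and the adjusted p from 0.0181 to 0.216. The median log2 fold change of the 20 factors was 0.215 in PLT-HSC against MUL-HSC. Ikzf3, Pax5 and Tcf7, factors of later B and T cells, had 0 counts in all libraries. Other such factors had counts in few libraries. Ebf1 had them in 2 PEM-HSC libraries (highest 5.12 CPM) and 1 PLT-HSC library (0.0345 CPM). Lef1 had them in 1 PEM-HSC library (5.76 CPM) and Bcl11b in 1 MUL-HSC library (0.0483 CPM).

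All 20 genes of FLT3 and interleukin 7 receptor signalling had counts in at least 1 library and were tested, and 0 were called in any comparison. Il2rg, the common gamma chain that pairs with the product of Il7r, averaged 1173 ± 727 CPM in PLT-HSC, 1342 ± 278 CPM across PEM-HSC and 1114 ± 93.5 CPM in MUL-HSC. Jak1, a kinase of the interleukin 7 receptor, averaged 390 ± 107 CPM in PLT-HSC, 281 ± 14.9 CPM across PEM-HSC and 318 ± 67.0 CPM in MUL-HSC. Of 33 Notch pathway genes 29 had counts, 28 were tested and 0 were called. The proteases that release the Notch signal were well covered, with Adam10 at 224 ± 96.1, 216 ± 58.7 and 192 ± 65.6 CPM and Ncstn, a gamma-secretase subunit, at 181 ± 72.4, 136 ± 52.3 and 116 ± 97.5 CPM in PLT-HSC, PEM-HSC and MUL-HSC. Of the Notch targets and regulators, Hey1, Hey2, Heyl and Dtx1 had 0 counts in all libraries, whereas Hes1 had counts in all 13 and Hes5, Nrarp and Dtx4 in some. Hes1 had means of 28.2 ± 18.6 CPM over PLT-HSC, 12.7 ± 3.54 CPM across PEM-HSC and 10.1 ± 5.28 CPM over MUL-HSC, and was not called (edgeR adjusted p = 0.659 in PLT-HSC against MUL-HSC).

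Genes that assemble antigen receptors and signal from them came next. Rag1 and Rag2, the lymphoid recombinase, had 0 counts in all 13 libraries, as did Dntt, while the end-joining genes Xrcc4, Xrcc5 and Xrcc6 had counts in all of them and Lig4, the ligase, did not. Of 13 genes 11 were tested and 0 called, and the most abundant, Hmgb1 and Hmgb2, had means of 565 ± 58.4 and 158 ± 105 CPM over PLT-HSC, 510 ± 51.9 and 216 ± 105 CPM across PEM-HSC and 663 ± 122 and 263 ± 146 CPM over MUL-HSC. Of 20 genes of the pre-B and B cell receptor, 18 had counts, 16 were tested and 0 were called. Igll1, which encodes a part of the surrogate light chain, and Blk were at 0 in all libraries. Vpreb1, for another part of that chain, had counts in 2 of 3 PLT-HSC, 4 of 6 PEM-HSC and 3 of 4 MUL-HSC libraries. Its means were 1.74, 1.17 and 2.39 CPM in that order. Cd79b, a B cell receptor subunit, averaged 115 ± 31.0 CPM in PLT-HSC, 146 ± 34.1 CPM across PEM-HSC and 140 ± 27.8 CPM in MUL-HSC. Ptpn6, a phosphatase of all blood cells, averaged 201 ± 62.2, 285 ± 78.5 and 175 ± 52.0 CPM in the same order. Btk, the kinase that BLNK brings to its target, was looked at after its values were seen. It stood at 33.9, 20.8 and 29.3 CPM in PLT-HSC, ran from 36.3 to 76.7 CPM across PEM-HSC and from 39.0 to 77.1 CPM in MUL-HSC, and did not pass against MUL-HSC (log2 fold change -1.26, SE 0.38, edgeR adjusted p = 0.451). Every PLT-HSC library was below every PEM-HSC library in Btk, as 1.06% of all tested genes were, and below every MUL-HSC library, as 3.04% were.

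**Figure D4:**
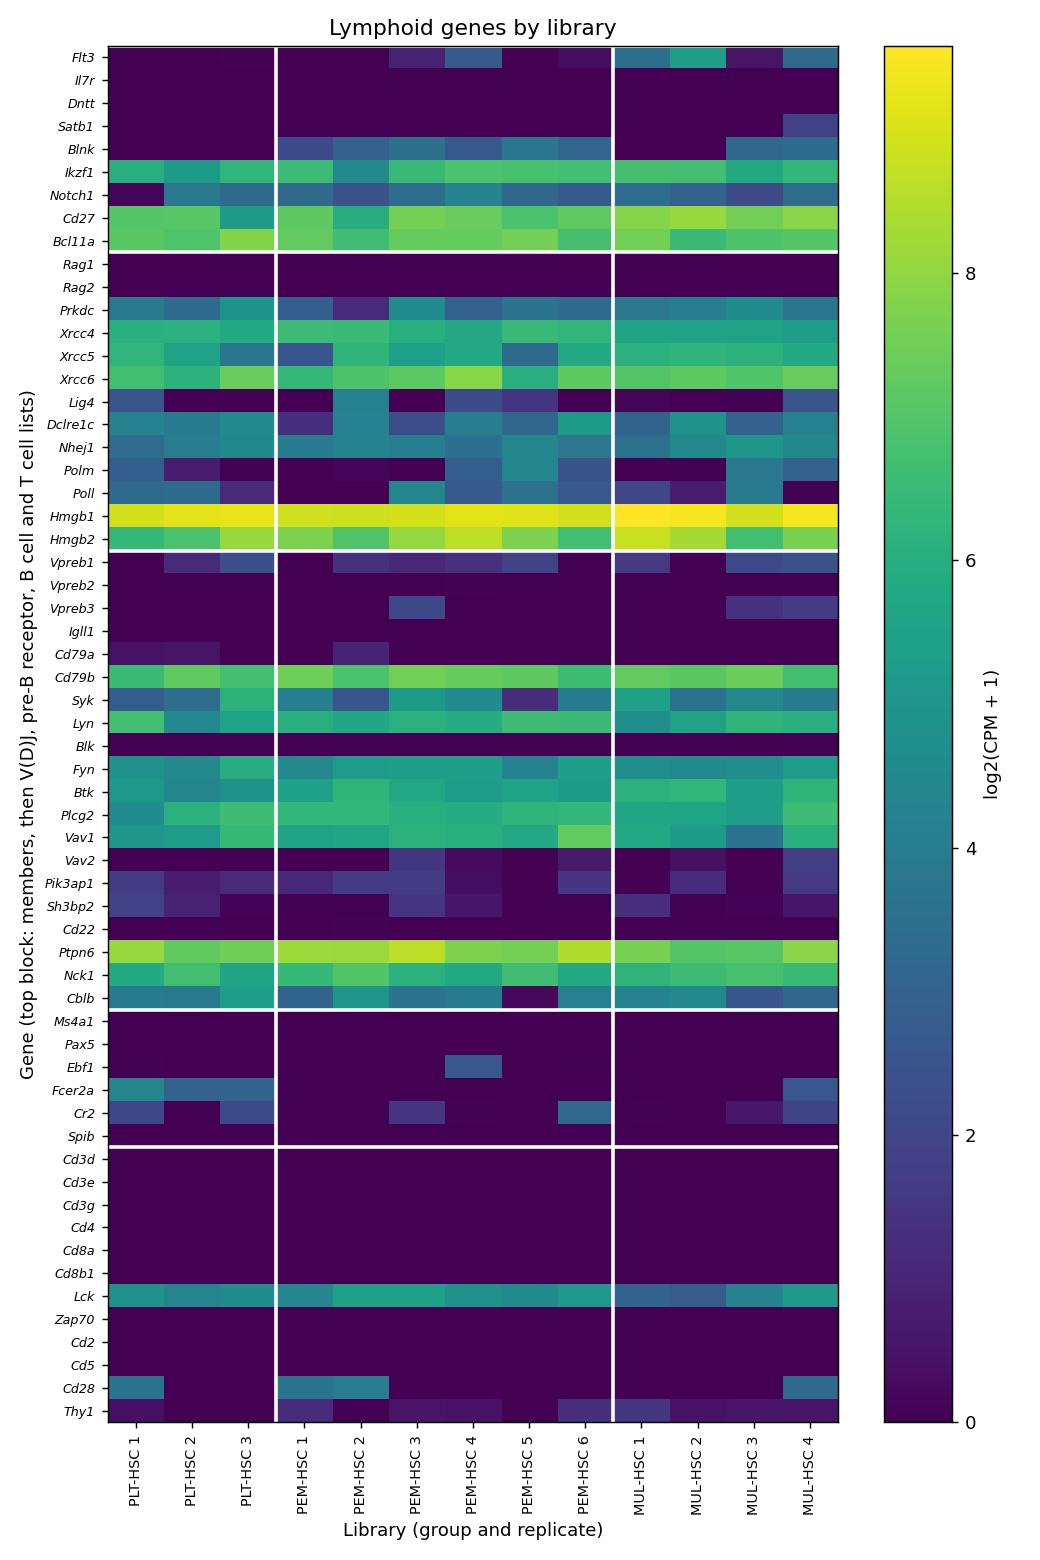
Levels as log2(CPM + 1), shown by colour, of the 9 lymphoid priming genes and of genes from the V(D)J, pre-B receptor, B cell and T cell lists, with genes as rows and the 13 libraries as columns, PLT-HSC at the left, PEM-HSC in the middle and MUL-HSC at the right. Il7r, Dntt, Rag1, Rag2, Igll1, Pax5 and the CD3 genes are at 0 in every column, while Ikzf1, Cd27, Bcl11a and Cd79b have counts in every column.

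The remaining partner lists had 0 called members in all comparisons. Of 15 genes of CD27 and tumour necrosis factor receptor signalling 14 were tested, Cd70, the ligand of CD27, was at 0 in all libraries, and the most abundant were Siva1 and Birc2 (160 and 105 CPM in PLT-HSC, 185 and 134 CPM across PEM-HSC, 217 and 96.9 CPM in MUL-HSC). All 13 subunits of the NuRD complex, a chromatin remodeller bound by Ikaros and BCL11A, were tested, led by Rbbp7 and Hdac2 (1128 and 374 CPM in PLT-HSC, 1227 and 443 CPM across PEM-HSC, 1440 and 422 CPM in MUL-HSC).

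Markers of mature lymphocytes were checked, since a few such cells in 100 would carry lymphoid transcripts. Of 12 T cell markers measured, 9 were at 0 in all libraries, among them Cd3d, Cd3e, Cd3g, Cd4 and Cd8a. The summed level, largely Lck, was 19.4 to 41.5 CPM in PLT-HSC, 22.9 to 59.4 CPM across PEM-HSC and 6.21 to 44.5 CPM over MUL-HSC. Lck averaged 24.3 ± 4.99 CPM in PLT-HSC, 32.1 ± 10.1 CPM across PEM-HSC and 16.7 ± 13.7 CPM over MUL-HSC. Cd28, next in mean level, averaged 3.92, 4.53 and 2.18 CPM in that order. Its counts came only from PLT-HSC replicate 1 (11.8 CPM), PEM-HSC replicates 1 and 2 (11.9 and 15.3 CPM) and MUL-HSC replicate 4 (8.73 CPM). Of 11 B cell markers Ms4a1, Pax5 and Spib were among those at 0 in all libraries, and the summed level was 115 to 157 CPM in PLT-HSC, 106 to 189 CPM across PEM-HSC and 111 to 167 CPM in MUL-HSC, mostly Cd79b. Fcer2a, a B cell surface receptor, averaged 11.7 ± 7.89 CPM in PLT-HSC, 0 across PEM-HSC and 1.28 ± 2.56 CPM in MUL-HSC. Of 11 natural killer and innate lymphoid markers 6 were at 0 in all libraries, Ncr1, Prf1 and Eomes among them, and the summed level spanned 157 to 376 CPM for PLT-HSC, 92.5 to 364 CPM for PEM-HSC and 122 to 232 CPM for MUL-HSC. The 2 most abundant, Nkg7 and Klrb1c, averaged 48.9 ± 75.3 and 183 ± 172 CPM over PLT-HSC, 83.2 ± 44.7 and 93.7 ± 70.8 CPM across PEM-HSC and 170 ± 35.0 and 7.74 ± 15.4 CPM over MUL-HSC. Of 10 markers of plasmacytoid dendritic cells and early lymphoid cells, Siglech, Ly6d, Cox6a2 and Klk1 were at 0 in all libraries, and Bst2 and Tcf4 averaged 100 and 71.1 CPM over PLT-HSC, 95.1 and 67.0 CPM across PEM-HSC and 79.8 and 58.9 CPM over MUL-HSC. No marker of these 4 lists was called in any comparison.

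Among myeloid markers, 8 of 16 were tested and 0 called, with Lyz2 and Prtn3 at 1158 and 421 CPM in PLT-HSC, 1090 and 415 CPM across PEM-HSC and 1403 and 310 CPM over MUL-HSC. Of 13 erythroid and megakaryocyte markers 10 were tested and 0 called, with Pf4 and Gp9 at 40.6 and 75.3 CPM in PLT-HSC, 61.2 and 71.6 CPM across PEM-HSC and 99.2 and 41.6 CPM over MUL-HSC. Of the 15 HSC markers, Vwf and Ctnnal1 were called in PLT-HSC against MUL-HSC, with Vwf at 136 ± 55.3 CPM and 10.1 ± 3.89 CPM and Ctnnal1 at 81.1 ± 22.02 CPM and 10.5 ± 5.27 CPM in PLT-HSC and MUL-HSC. Leaving out 1 library in turn, Vwf stayed called each time (log2 fold change 3.43 to 3.89), whereas Ctnnal1 lost its call in 11 of 13 settings, all but those without PEM-HSC replicate 2 or 5 (log2 fold change 2.66 to 3.175, adjusted p up to 0.173). Over all 24 alternative settings, Vwf lost its call in 2, without MUL-HSC replicates 1 and 2 together (adjusted p = 0.0923) and with limma-voom (0.116), and Ctnnal1 in 18 (adjusted p up to 0.332). In the main fit Vwf was also called in PEM-HSC and in the restricted groups, each against MUL-HSC, and averaged 78.2 ± 32.1 CPM in PEM-HSC. Ctnnal1 was called in neither (edgeR adjusted p = 0.51 and 0.0658) and averaged 33.1 ± 12.6 CPM in PEM-HSC.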

How the data were processed

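Polyadenylated RNA of 13 libraries was amplified as cDNA by Smart-seq+ and tagmented with Nextera XT, per the labels' protocols. The authors used Trimmomatic, FastQC, STAR and featureCounts with build mm9, per the submitters' processing notes; their versions, the strand mode and the annotation are "not given in the sources used here". Raw counts per gene symbol make up the table the authors deposited, with whole numbers and unequal totals per library, plus 92 ERCC spike-in rows, which were left out of library sizes and tests. The protocol as labelled has no molecular identifiers, so intervals and floors cover counting error only.

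From these counts, CPM was computed on each library's gene total. Genes were kept with filterByExpr (12536), scaled by TMM and tested with edgeR 4.0.16 (robust quasi-likelihood, R 4.3.3) in a single model of 13 libraries with 1 coefficient for each group, with Benjamini-Hochberg adjustment over all tested genes and calls at an adjusted p under 0.05. The edgeR test gives no SE. The SE printed with its log2 fold changes is the absolute fold change on that scale divided by the square root of the F statistic. Where a group is at 0 or 1 count, this SE depends on the prior count as the fold change does. DESeq2 1.42.0 (without independent filtering) and limma-voom 3.58.1 were alternatives. The fit was tested on simulated data. The common dispersion gave a biological coefficient of variation of 0.993. Replicate libraries differed beyond sampling noise in every pair (lowest chi-square per degree of freedom 163). Exon lengths and overlaps came from GENCODE vM21, a later build than the counts, matched by symbol for 9 of 9 genes.

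The 9 genes and the lists were chosen with earlier results of these data known. All 9 genes are described. From each other list the text names called genes, or the 2 with the highest mean CPM, and for each tested gene the 2 most similar genes by Pearson r, leaving out gene models. Cd48, Btk, Hes1, Vpreb1, Ebf1, Lef1 and Bcl11b fall outside this rule and were chosen after their values were seen. So do the progenitor markers with positive fold changes and the genes named as being at 0, in some or in all libraries. Some genes of the lists are not reported here.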

Additional observations from a re-analysis of the deposited data

Results flagged for a closer look

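Of 13 sets of values tested, each 1 gene in PEM-HSC or MUL-HSC with any counts, 3 had a library that stood apart by Dixon's criterion at the 95% level, where chance marks about 1 set in 20. Flt3 in PEM-HSC replicate 4 stood at 5.34 CPM, and the next highest PEM-HSC library stood at 0.953 CPM. Satb1 in MUL-HSC replicate 4 stood at 2.66 CPM, with 0 in the rest of the group, a pattern in which any single library with counts meets the criterion. Ikzf1 in PEM-HSC replicate 2 stood at 21.8 CPM, and the next lowest PEM-HSC library stood at 87.4 CPM. That library also had the lowest Cd27 of PEM-HSC, 61.9 CPM, and the lowest Notch1, 4.45 CPM. PLT-HSC, with 3 libraries, was not tested in this way.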

How the results depend on the processing

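Over 24 alternative settings, 556 values of the 6 tested genes were compared with the reported ones: 4 became calls, all with DESeq2, 26 changed sign, and the rest kept their direction and stayed uncalled. The count of called genes among the 9 was 0 in every comparison and setting except with DESeq2, where it was 2 in PLT-HSC against MUL-HSC, 1 in the restricted groups against MUL-HSC and 1 in PLT-HSC against PEM-HSC. Of all 12536 tested genes DESeq2 called 262, 312 and 114 in those comparisons. Sign changes were in Notch1, Ikzf1, Bcl11a, Blnk and Cd27. Notch1 in PLT-HSC against MUL-HSC was 0.0031 with DESeq2 size factors, 0.0027 with DESeq2 and 0.24 when MUL-HSC replicates 1 and 2 were left out together, which was chosen after seeing the data. This last setting also gave -0.12 for Blnk and 0.39 for Ikzf1 in PEM-HSC against MUL-HSC and 0.11 for Ikzf1 in the restricted groups. With library totals only, Ikzf1 in PEM-HSC was 0.017. With detected genes as a covariate, Notch1 was -0.0076 in PEM-HSC and -0.16 in the restricted groups, where limma-voom gave -0.70. The cause was not tested. Leaving out 1 library, Notch1 ran from -0.86 to 0.56 (PLT-HSC), -0.072 to 0.39 (PEM-HSC), -0.31 to 0.40 (restricted groups) and -1.09 to 0.32 (PLT-HSC against PEM-HSC). Ikzf1 ran from -0.17 to 0.19 and Bcl11a from -0.022 to 0.33 in PEM-HSC, and against PEM-HSC Bcl11a ran from -0.069 to 0.23 and Cd27 from -0.70 to 0.051 in PLT-HSC. Flt3 ran from -11.62 to -8.83 and Cd27 from -1.49 to -0.72 in PLT-HSC against MUL-HSC.

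Same-numbered libraries of different groups did not deviate together (correlations -0.155 to 0.06 in 10 pairs, and 1 of 11 libraries correlated best with its own number). That gave no sign of pairing by number. It cannot exclude a shared recipient or batch, since replicate libraries differed widely. With the replicate number as a block, 0 members were called, Flt3 in PLT-HSC against MUL-HSC was -10.58 and Cd27 -1.20, and the calls over all genes were 2, 0, 1 and 0 in place of 6, 1, 9 and 0. Those counts were 262, 177, 312 and 114 with DESeq2, 0, 1, 16 and 1 with limma-voom, and, leaving out 1 library, 1 to 37, 0 to 4, 1 to 44 and 0 to 2 (the highest without PLT-HSC replicate 3). With detected genes as a covariate the count in PEM-HSC against MUL-HSC was 0. With no filter they were 11, 1, 14 and 0, with at least 10 CPM in 3 libraries 13, 1, 11 and 0, with library totals only 4, 1, 3 and 0, and with only the groups compared 1, 0 and 0 for the 3 pairs of groups. Without both MUL-HSC replicates 1 and 2 they were 1, 1, 2 and 0. The filter of at least 10 CPM in 3 libraries left out Flt3, Blnk and Notch1, and a fit of only the groups compared left out Blnk between PLT-HSC and MUL-HSC and Flt3 between PLT-HSC and PEM-HSC. The Cd34 call also ended with library totals only (adjusted p = 0.0513) and with the block (0.31). The Mef2c call ended in 15 of 24 settings. Besides those that left out 1 library, these included limma-voom (0.0662), no robust estimation (0.0666), only the groups compared (0.17) and the block (0.414). A count of 0 for Flt3, Blnk, Satb1, Il7r or Dntt is limited by the floor of 3 counts.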
